A study of Mus musculus with 6 samples.

Results

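The genes described here are 39 mouse genes of antioxidant defence, most of them known targets of the transcription factor NRF2. They were chosen by gene name: every non-control spot whose gene name equals one of the 39 symbols was taken, which gave 48 probes. Of the 39 genes, 38 were measured, set among 15746 named genes measured on the same arrays. The exception was Slc7a11, the cystine transporter that supplies glutathione synthesis, whose 1 probe was not well above background on any of the 6 arrays. The other 47 probes passed that mark on all 6 arrays, so no measured gene entered through 1 group alone.

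NRF2, encoded by Nfe2l2, is held in the cytoplasm by KEAP1, which marks it for degradation. When electrophiles or oxidants modify KEAP1, NRF2 accumulates, enters the nucleus and, paired with a small MAF protein, binds antioxidant response elements. Its targets make and recycle glutathione and thioredoxin, reduce quinones, supply NADPH, export conjugates and store iron. In the intestine these enzymes also meet dietary oxidants and xenobiotics, and ionising radiation produces reactive oxygen species in the tissue.

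RNA came from the jejunum of male C57BL/6J mice. The 3 mice of the VND3207 group received 100 mg/kg of this compound, known here by its code name, into the stomach, and the 3 mice of the vehicle group received the same volume of vehicle. All 6 mice received 9 Gy of radiation 0.5 h later and were sampled 6 h after it, so the controls were irradiated too and no unirradiated mouse enters any comparison. Each mouse gave 1 array, and the study asks how VND3207 acts on radiation injury of the intestine.

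Levels are log2 processed signal minus the 75th percentile of the array, and differences are VND3207 minus vehicle on that log2 scale, with the moderated standard error (SE) of limma after ±. A gene with several probes is represented by its brightest. A gene was called where its Benjamini-Hochberg adjusted p in limma, over all 36066 probes kept, was under 0.05. The share of spots well above background was 66.7% to 70.0% in vehicle mice and 58.8% to 61.4% in VND3207 mice. All vehicle arrays lay on 1 slide and in 1 scan, and all VND3207 arrays on another slide and scan, so slide, scan and treatment cannot be told apart in any difference below. All 12 enterocyte markers were measured in the tissue labelled jejunum. The 8 smooth muscle markers, all measured, summed to 66.3 in VND3207 replicate 3 against 230 to 289 on the other arrays, as linear levels in multiples of the array's 75th percentile, and their part in the differences was not tested.

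An antioxidant response element core was looked for because it is the sequence NRF2 reads. The letters TGACNNNGC were searched on both strands in the promoter windows of RefSeq (GRCm38.p6), which run from 250 bases before to 50 bases after a gene's start. Of the 34 genes with an entry, 11 (32.4%) held a match, against 14.0% of 27025 genes with an entry. Among the 13 matches, 2 also contained the AP-1 motif (TGAGTCA or TGACTCA). Examples from glutathione synthesis, a peroxiredoxin, the thioredoxin system, conjugation and NADPH supply are printed 5′ to 3′ on the gene's strand, with the match in capitals. In order, they lie at chr3:122245403-122245451 (plus strand), chr4:116685446-116685494 (plus), chr10:82859094-82859142 (plus), chr5:65435946-65435994 (minus) and chrX:74428909-74428957 (minus).
Gclm: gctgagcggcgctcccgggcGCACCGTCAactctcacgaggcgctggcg
Prdx1: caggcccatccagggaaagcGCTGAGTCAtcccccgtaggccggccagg
Txnrd1: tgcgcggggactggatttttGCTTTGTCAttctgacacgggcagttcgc
Ugdh: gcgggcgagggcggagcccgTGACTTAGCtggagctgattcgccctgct
G6pdx: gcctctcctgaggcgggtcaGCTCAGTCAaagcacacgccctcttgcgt
The match began 134 bases before the annotated start in Gclm, 133 in Prdx1, 92 in Txnrd1, 132 in Ugdh and 57 in G6pdx. Of the matches printed, only that of Ugdh reads on the gene's own strand. Ugdh also holds a match on the opposite strand, 94 bases before its start, which is not printed. The Prdx1 match is among those that contain the AP-1 motif. A match is a description of letters, and none of these 5 genes was called different between the groups. The windows of Ftl1 and Fth1 held no match, nor did those of most of the set, among them Nqo1, Txn1 and Gss. Hmox1, Gclc and Gsr had no entry, and sequence outside the windows was not searched.

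Across the 38 measured genes, 1 was called lower with VND3207, the ferritin light chain Ftl1, and 0 were called higher. Among all 15746 named genes, 7.74% were called lower and 0.692% higher, so neither count of these genes exceeds the share over all genes. At an unadjusted limma p under 0.05 there were 3 of 38 (7.89%), against 18.1% of all named genes. The differences ran from -0.74 to 0.57, with 17 above 0 and 21 below, and their median was -0.04 beside 0.0 over all named genes. Because dim probes carried most of the lower calls, the 35 genes brighter than the 75th percentile were also set beside the 8365 named genes as bright, of which 2.47% were called lower and 0.478% higher. There the median was -0.05 against 0.03, with the same 1 call.

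**Figure D1:**
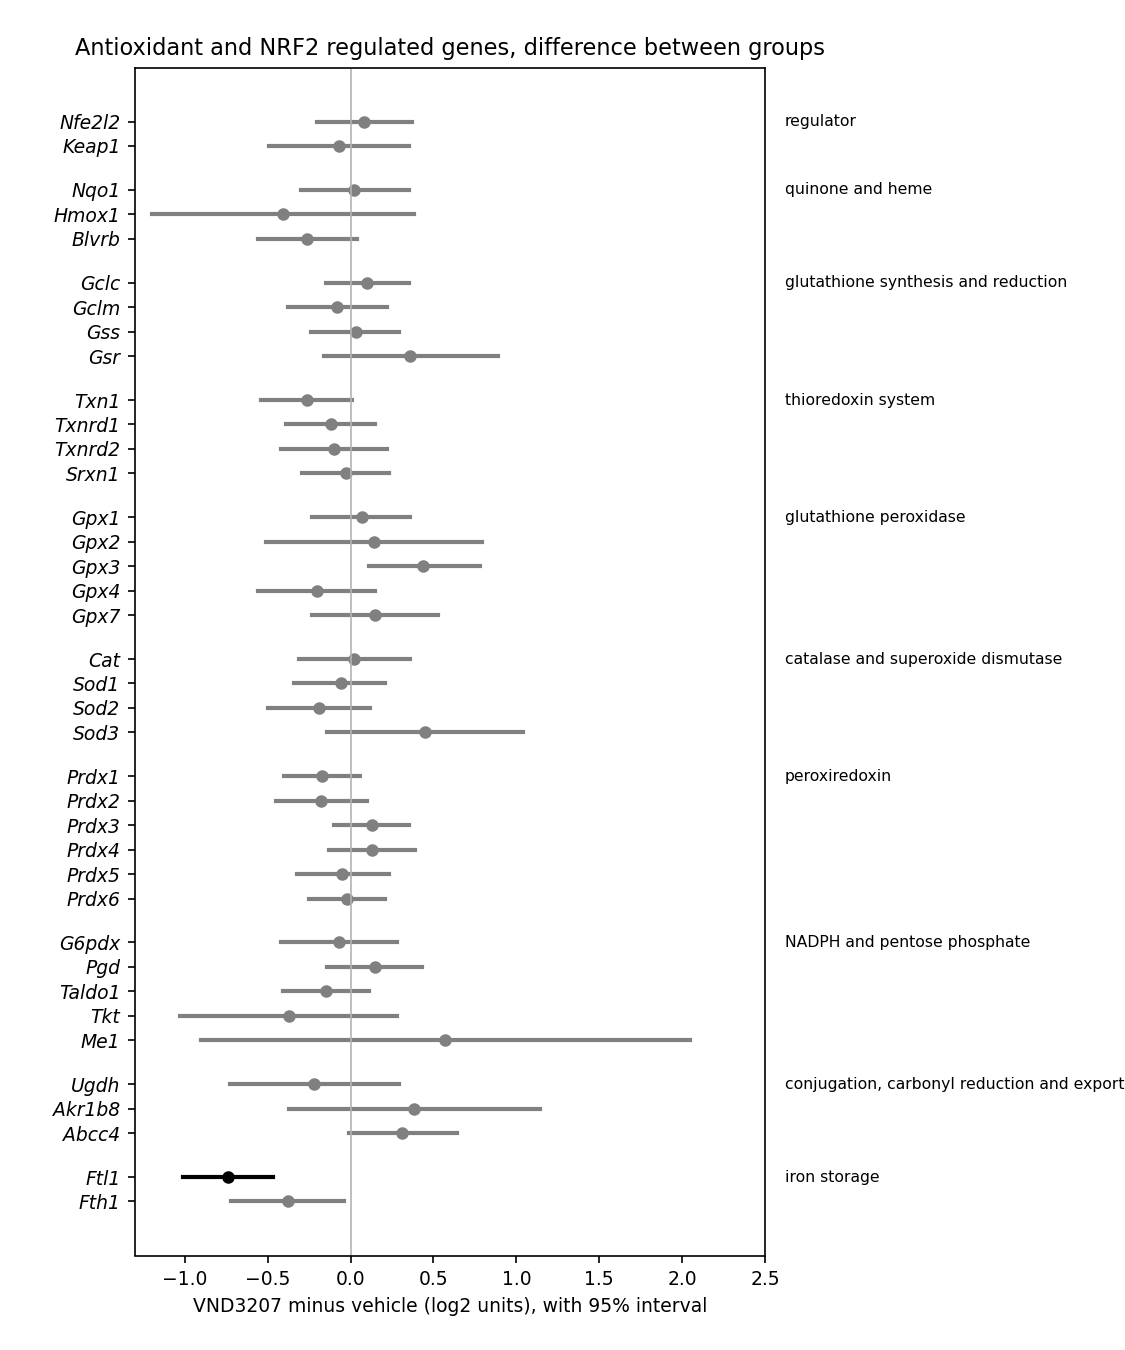
Difference between VND3207 and vehicle (log2 units, horizontal axis) for the 38 measured genes, grouped by role on the vertical axis, with bars for the 95% interval of limma and black for an adjusted p under 0.05. Ftl1 at -0.74 is the only black point, and the widest bar is that of Me1.

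The precision was uneven. The SE had a median of 0.12 and ran from 0.09 to 0.61. For 32 of the 38 genes the 95% interval lay within 1 log2 unit of 0, and for 26 within 0.58. Those intervals hold for the main scaling and do not take in the choice of scaling or a difference between slides. Gpx1, with an interval of -0.23 to 0.36, was at 0.45 after correction for smooth trends. Small differences cannot be told from 0 with 3 mice per group. The sign of small differences rests on the scaling: it turned for 7 of the 38 genes after quantile normalization (Srxn1, Cat, Sod1, Prdx5, Prdx6, Taldo1 and Fth1), for 6 in the deposited table, for 11 after correction for smooth trends and for 17 with the array median subtracted, which moves the median of all named genes to 0.30. Sod1 was at 0.14 after quantile normalization and 0.27 after correction for smooth trends, Prdx5 at 0.08 and 0.37, and Gpx4 at -0.05 and 0.11.

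Neither regulator was called. Nfe2l2 read 5.17, 5.22 and 5.16 on the vehicle arrays and 5.18, 5.16 and 5.46 on the VND3207 arrays. VND3207 replicate 3 was the highest and the groups overlapped, with a difference of 0.08 ± 0.12 (95% interval -0.20 to 0.37, limma adjusted p = 0.716). Keap1 read 2.87, 3.14 and 2.68 in vehicle mice and 2.57, 3.00 and 2.91 in VND3207 mice. Its groups overlapped, at -0.07 ± 0.17 (adjusted p = 0.849).

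The genes most often read as NRF2 reporters were also close to 0. Nqo1, which reduces quinones without leaving a radical, read 1.31, 1.25 and 0.93 with vehicle and 1.15, 1.16 and 1.26 with VND3207, a difference of 0.02 ± 0.13 (limma adjusted p = 0.933). The VND3207 values lay inside the range of the vehicle values. Gclc, the catalytic subunit of the enzyme that limits glutathione synthesis, read 2.33, 2.39 and 2.38 against 2.44, 2.38 and 2.59, at 0.10 ± 0.10 (adjusted p = 0.605). Gclm, its modifier subunit, read 1.14, 0.92 and 0.95 against 1.01, 0.76 and 1.00, at -0.08 ± 0.12 (adjusted p = 0.739). Both pairs of groups overlapped. The intervals of Nqo1 (-0.30 to 0.35), Gclc (-0.15 to 0.35) and Gclm (-0.38 to 0.22) therefore cover small changes of either sign. Srxn1, the sulfiredoxin that repairs overoxidised peroxiredoxins, was at -0.03 ± 0.11, and Gss, the glutathione synthetase of the final step, at 0.03 ± 0.11.

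Hmox1, the heme oxygenase that opens the heme ring, had 2 probes that did not behave alike. The brighter probe read 0.03, 0.24 and 0.22 with vehicle and 0.15, -1.01 and 0.12 with VND3207, so that VND3207 replicate 2 stood alone below the other 5 arrays. Its difference was -0.41 ± 0.32, and -0.03 without that replicate. The dimmer probe read -0.30, -1.54 and -1.81 against -1.13, -1.34 and -1.16, with vehicle replicate 1 alone above the rest and a difference of 0.01 ± 0.39. Neither probe was called (limma adjusted p = 0.496 and 0.996). Blvrb, a biliverdin and flavin reductase abundant in red cells, was at -0.26 ± 0.12 (adjusted p = 0.249). For Blvrb, vehicle replicate 1 was the highest array and VND3207 replicate 2 the lowest. Of 10 red cell markers listed, 6 were measured and 0 were called. Their summed linear level, in multiples of the array's 75th percentile, was also highest in vehicle replicate 1 (91.5) and lowest in VND3207 replicate 2 (16.2), with ranges of 35.5 to 91.5 in vehicle and 16.2 to 44.8 in VND3207 mice. Of the 6 markers, 5 had these same highest and lowest arrays, among them Alas2, the heme synthesis enzyme specific to the red cell lineage. The other, Slc4a1, the anion exchanger of the red cell membrane, was lowest in vehicle replicate 1 (-3.74) and highest in VND3207 replicate 3 (-3.28), at 0.27 ± 0.10. The part of blood in Hmox1 and Blvrb was not tested. In whole tissue, fewer cells of a type and less RNA per cell cannot be told apart.

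Recycling of glutathione rests on Gsr, the NADPH-dependent glutathione reductase. Its brighter probe read 5.15, 4.92 and 4.73 with vehicle and 5.26, 5.68 and 4.95 with VND3207. A second probe read 3.82, 3.47 and 3.27 against 3.92, 4.21 and 3.47, which puts the arrays of each group in the same order. Their differences were 0.36 ± 0.22 and 0.35 ± 0.23 (limma adjusted p = 0.356 and 0.413), with overlapping groups. Gpx2, the glutathione peroxidase of the gut epithelium, had the same highest array in each group: it read 7.51, 7.19 and 6.95 against 7.20, 7.88 and 6.99. Akr1b8, an aldo-keto reductase for aldehydes, read 2.96, 2.31 and 2.27 against 2.93, 3.39 and 2.37, with VND3207 replicate 2 again highest and vehicle replicate 1 highest of its group. Without VND3207 replicate 2 the difference of Gsr went from 0.36 to 0.17, that of Akr1b8 from 0.38 to 0.14, and that of Gpx2 changed sign from 0.14 to -0.12. These 3 genes thus varied between mice of a group by as much as between the groups.

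**Figure D2:**
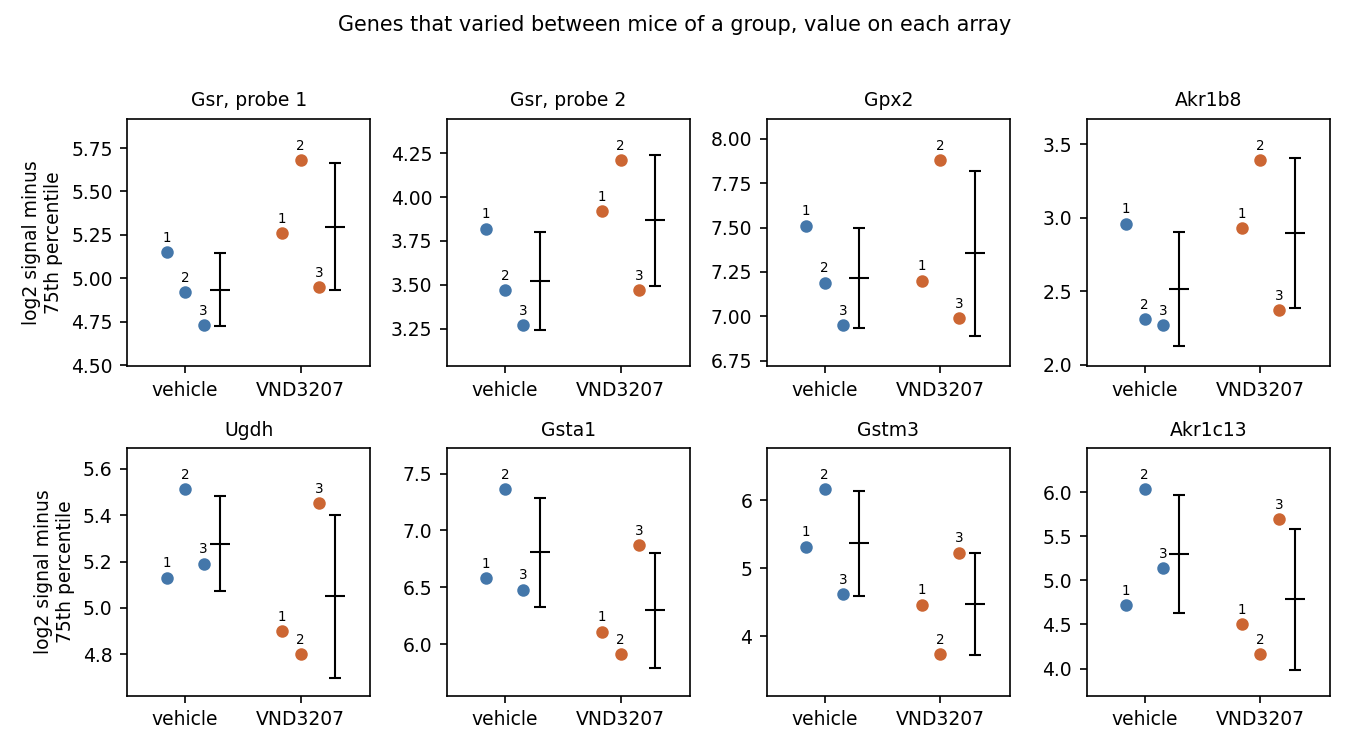
Level on each array (log2 signal minus the array's 75th percentile, vertical axes; the number beside a point is the replicate, the bar the mean ± SD of 3 mice) for genes that varied within groups. Gsr, Gpx2 and Akr1b8 are highest in VND3207 replicate 2, while Ugdh, Gsta1, Gstm3 and Akr1c13 are high in vehicle replicate 2 and VND3207 replicate 3.

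Another order of arrays appeared in conjugation genes. Ugdh, which makes the UDP-glucuronate used in glucuronidation, read 5.13, 5.51 and 5.19 with vehicle and 4.90, 4.80 and 5.45 with VND3207, at -0.22 ± 0.21 (limma adjusted p = 0.574). Vehicle replicate 2 and VND3207 replicate 3 were its high arrays. The glutathione transferases Gsta1 (6.58, 7.36 and 6.48 against 6.11, 5.91 and 6.87) and Gstm3 (5.32, 6.16 and 4.62 against 4.46, 3.73 and 5.23), which were not in the gene set, had the highest array of each group in common with Ugdh. These genes were set beside each other after their values were seen.

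The thioredoxin system, which passes electrons from NADPH to oxidised proteins, had all 4 genes below 0, from -0.26 to -0.03, and none was called. Txn1, the cytosolic thioredoxin, read 7.47, 7.64 and 7.36 with vehicle and 7.14, 7.24 and 7.30 with VND3207. Every VND3207 array lay below every vehicle array, by a mean of -0.26 ± 0.11 (limma adjusted p = 0.203). That difference was -0.01 after quantile normalization and 0.03 with the array median subtracted, so its sign rests on the scaling. It was -0.25 (adjusted p = 0.181) after correction for smooth trends and -0.33 with normexp. The thioredoxin reductases Txnrd1, of the cytosol, and Txnrd2, of mitochondria, were at -0.12 ± 0.11 and -0.10 ± 0.13. Srxn1 turned to 0.05 after quantile normalization.

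Groups that did not overlap were found for 8 of the 38 genes: 5 with every VND3207 array below every vehicle array, and 3 the other way. Over all named genes the shares were 16.0% and 11.9%. The 5 lower ones were Ftl1, Fth1, Txn1, Prdx1 and Taldo1, all among the brighter genes of the set. The 3 higher ones were Gpx3, Prdx3 and Abcc4. Only Ftl1 passed the adjusted threshold.

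**Figure D3:**
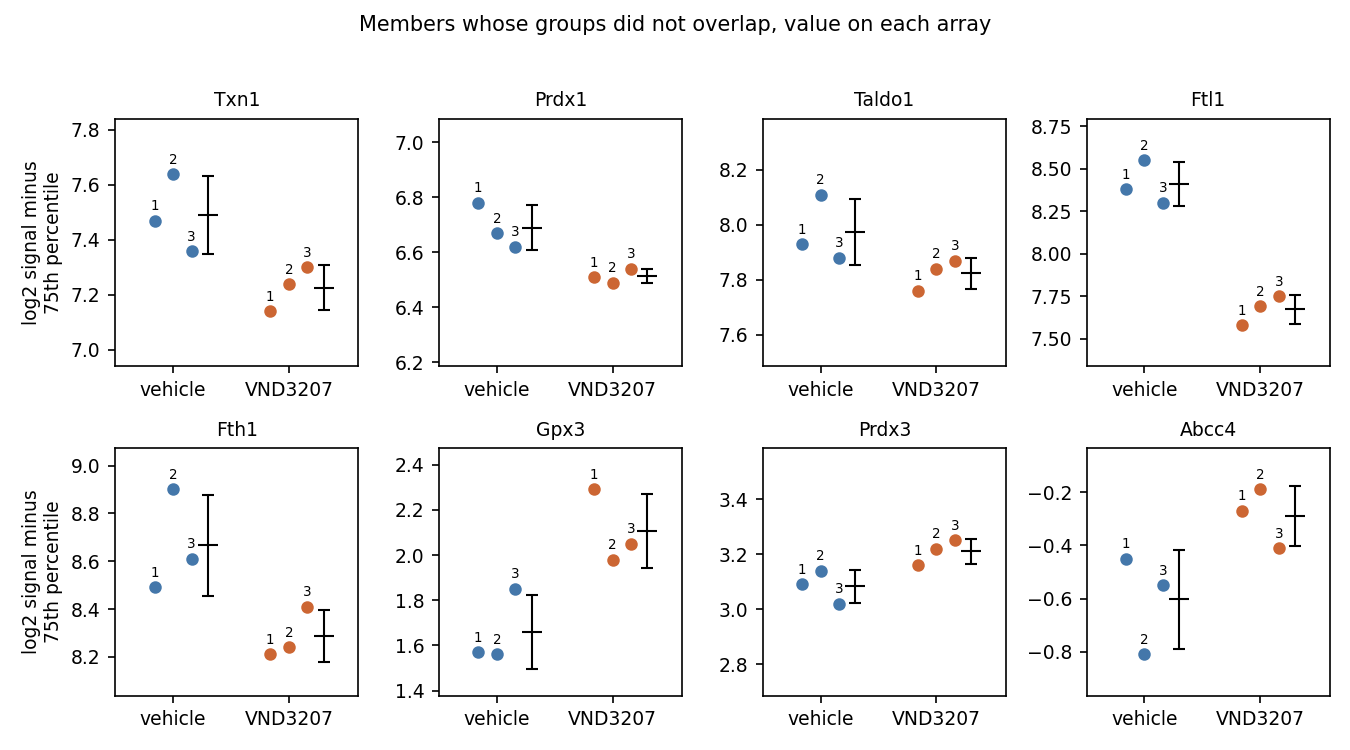
Level on each array (log2 signal minus the array's 75th percentile, vertical axes; numbers mark replicates, bars the mean ± SD of 3 mice) for the 8 genes whose groups did not overlap. The vertical scale differs between panels, and the gap between groups is widest in Ftl1, whose vehicle arrays start at 8.30 and whose VND3207 arrays end at 7.75.

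Glutathione peroxidases remove peroxides at the cost of glutathione. Gpx3, the secreted form, read 1.57, 1.56 and 1.85 with vehicle and 2.29, 1.98 and 2.05 with VND3207. The groups did not overlap, VND3207 replicate 1 being the highest array, and the difference was 0.44 ± 0.14 (95% interval 0.11 to 0.78). Its limma adjusted p of 0.0894 was the smallest among the genes not called. It was 0.0499 with an intensity trend and robust variance, and 0.321 (difference 0.28) after each array was corrected for smooth technical trends. Gpx1, the cytosolic form, was at 0.07 ± 0.12. Its difference was 0.19 after quantile normalization and 0.45 (limma adjusted p = 0.0501) after correction for smooth trends. Gpx2 was at 0.36 and 0.65 in these settings and was not called in either. Gpx4, which reduces lipid peroxides in membranes, was at -0.20 ± 0.15, and Gpx7, a peroxidase of the endoplasmic reticulum and the dimmest gene measured in the set, at 0.15 ± 0.16.

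Superoxide dismutases turn superoxide into peroxide, which catalase breaks down. Sod1, the cytosolic enzyme, was at -0.06 ± 0.11, and Sod2, the mitochondrial one, at -0.19 ± 0.13. Sod3, the extracellular enzyme, read 0.50, 0.08 and 0.63 with vehicle and 1.30, 0.63 and 0.62 with VND3207, at 0.45 ± 0.24 (limma adjusted p = 0.311). VND3207 replicate 1 alone stood above the others, and without it the difference was 0.22. The 2 probes of Cat, catalase, were at 0.02 ± 0.14 and -0.28 ± 0.17, and neither was called.

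Peroxiredoxins reduce peroxides with electrons from thioredoxin. The 6 genes ran from -0.18 to 0.13, 4 below 0 and 2 above. Prdx1, a cytosolic form, read 6.78, 6.67 and 6.62 against 6.51, 6.49 and 6.54, without overlap, at -0.17 ± 0.10 (limma adjusted p = 0.326). That difference was -0.02 after quantile normalization, -0.03 after correction for smooth trends and 0.13 with the array median subtracted. Its second probe overlapped between groups and went the other way, at 0.11 ± 0.11. Prdx3, the mitochondrial form, read 3.09, 3.14 and 3.02 against 3.16, 3.22 and 3.25, at 0.13 ± 0.09 (adjusted p = 0.458). The VND3207 arrays were all above the vehicle arrays, by little. Prdx6, which also has phospholipase activity, had 4 probes between -0.08 and -0.02. Prdx2, abundant in red cells, was at -0.18 ± 0.11, Prdx4 of the secretory pathway at 0.13 ± 0.11, and Prdx5 at -0.05 ± 0.11.

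NADPH for these enzymes comes from the pentose phosphate pathway and malic enzyme. G6pdx, which opens the pathway, was at -0.07 ± 0.15, and Pgd, the next NADPH-producing step, at 0.15 ± 0.12. Taldo1, the transaldolase of the branch that returns sugars to glycolysis, read 7.93, 8.11 and 7.88 against 7.76, 7.84 and 7.87. The groups nearly met, at -0.15 ± 0.11 (limma adjusted p = 0.442), and the difference was 0.16 after quantile normalization. Tkt, the transketolase of the same branch, read 6.52, 6.87 and 6.72 against 6.61, 5.73 and 6.65. VND3207 replicate 2 alone was low, and the difference went from -0.37 ± 0.27 to -0.07 without it.

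Me1, the cytosolic malic enzyme, was the most variable gene of the set. Its 3 probes put 1 mouse apart. The brightest read 1.96, 1.44 and 1.57 with vehicle and 3.69, 1.49 and 1.52 with VND3207, and the others read 3.08 and 2.10 on the array of VND3207 replicate 1 against highest values of 1.37 and 0.34 on the other arrays. The difference of 0.57 ± 0.61 (limma adjusted p = 0.622) became -0.15 without that array. Markers of adipose tissue, where Me1 supplies NADPH for fat synthesis, were high on the same array. Adipoq read 0.05, -4.75 and -2.03 with vehicle and 2.67, 0.26 and -3.97 with VND3207, and Plin1, Retn, Cfd and Fabp4 were also highest in VND3207 replicate 1. Lep was highest there as well, at -3.63, but Cidec was not. All 7 adipose markers listed were measured and 0 were called. Their summed linear level ran from 27.9 to 54.1 in vehicle mice and from 34.4 to 132 in VND3207 mice, in multiples of the array's 75th percentile. Outside VND3207 replicate 1, Cidec was the largest part of that sum. It read 4.29 to 4.98 over the 6 arrays, while Cfd ran from -1.37 to 5.70, so the sum understates the spread of the other markers. Gpx3 and Sod3 were highest on that array too, although without it Gpx3 still differed by 0.35. The part of adipose tissue in Me1, Gpx3 and Sod3 was not tested.

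**Figure D4:**
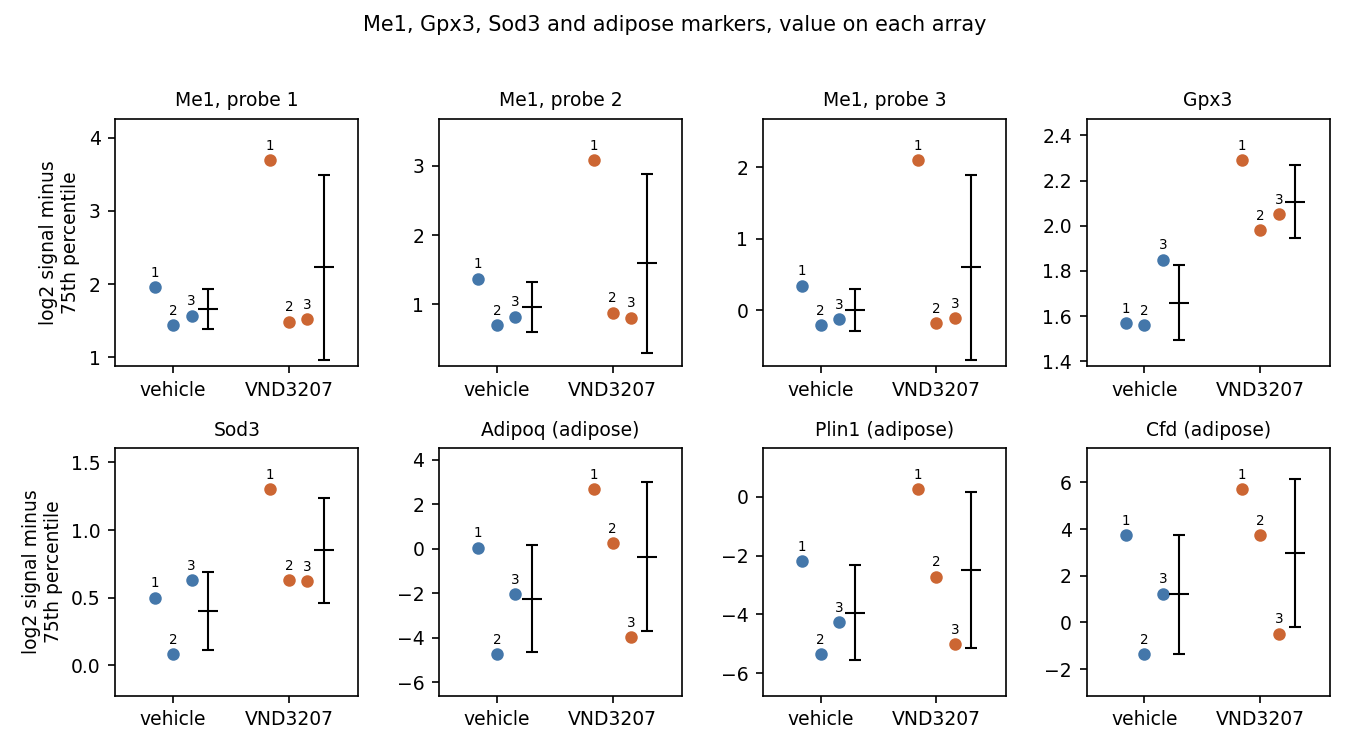
Level on each array (log2 signal minus the array's 75th percentile, vertical axes; numbers mark replicates, bars the mean ± SD of 3 mice) for the 3 Me1 probes, Gpx3, Sod3 and 3 adipose markers. VND3207 replicate 1 is the highest array in every panel, at 3.69 on the brightest Me1 probe and 2.67 for Adipoq.

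Abcc4, an exporter of conjugates and cyclic nucleotides, read -0.45, -0.81 and -0.55 with vehicle and -0.27, -0.19 and -0.41 with VND3207. Its groups did not overlap, though their nearest arrays were close, and the difference of 0.31 ± 0.13 was not called (limma adjusted p = 0.201).

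Iron storage held the 1 call. Ferritin binds iron that could otherwise take part in radical chemistry, and is built from a light chain that aids mineral formation and a heavy chain that oxidises iron. Ftl1, the light chain (probe at chr7:52713309-52713368, minus strand, mm9), read 8.38, 8.55 and 8.30 in vehicle mice and 7.58, 7.69 and 7.75 in VND3207 mice. Every VND3207 array was below every vehicle array. The difference of -0.74 ± 0.11 (95% interval -1.01 to -0.47) is a 1.67-fold lower signal, with a limma adjusted p of 0.00832. It was -0.38 (adjusted p = 0.0413) after quantile normalization and -0.60 (adjusted p = 0.0194) after correction for smooth technical trends.

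Fth1, the heavy chain, read 8.49, 8.90 and 8.61 against 8.21, 8.24 and 8.41. Its groups did not overlap, but the difference of -0.38 ± 0.14 was not called (limma adjusted p = 0.141) and was 0.04 after quantile normalization. Ftl2, a close copy of the light chain that is not in the gene set, was at -0.31 ± 0.12 (adjusted p = 0.144). Whether its RNA contributes to the Ftl1 probe was not tested. Ftmt, the mitochondrial ferritin, exceeded background clearly on each of the 3 vehicle arrays and on 0 of the VND3207 arrays, so its signal was lower by at least 1.36-fold. It passed the filter on dim probes through the vehicle group alone, so a lower value was built into its selection and no test is given.

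Ftl1 belongs to the brightest genes, and those were lower in general. Of the 267 named genes with a mean level of 7 or more, a cut chosen after the values were seen, 240 were below 0, their median difference was -0.26, and 23.6% were called lower. In that band 22 genes had a difference below that of Ftl1. After quantile normalization the median of the band was 0.06, and after correction for smooth technical trends 0.08. Both settings even out trends with brightness by design, so medians near 0 for bright genes follow largely from the processing. This also applies to the marker medians below after quantile normalization. Many enterocyte markers are bright as well. The median of all 12 was -0.30, and 5 were called lower (Vil1, Fabp1, Fabp2, Lct and Anpep), all with a mean level of 7 or more. Alpi, Apob, Cdx2, Cdh17 and Mep1a were dimmer and ran from -0.22 to 0.10 without a call. Summed over the 12, the linear level was 2770 to 3210 in vehicle mice and 1970 to 2220 in VND3207 mice. It is given in multiples of the array's 75th percentile. The enterocyte median was -0.06 after quantile normalization. Paneth cell markers had a median of -0.40, with 3 of 6 measured called lower, and 0.0 after quantile normalization. Goblet cell markers had a median of -0.07, with 0 of 7 called, and 0.18 after quantile normalization. The parts of brightness and of the RNA of these cell types in the Ftl1 difference were not tested.

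**Figure D5:**
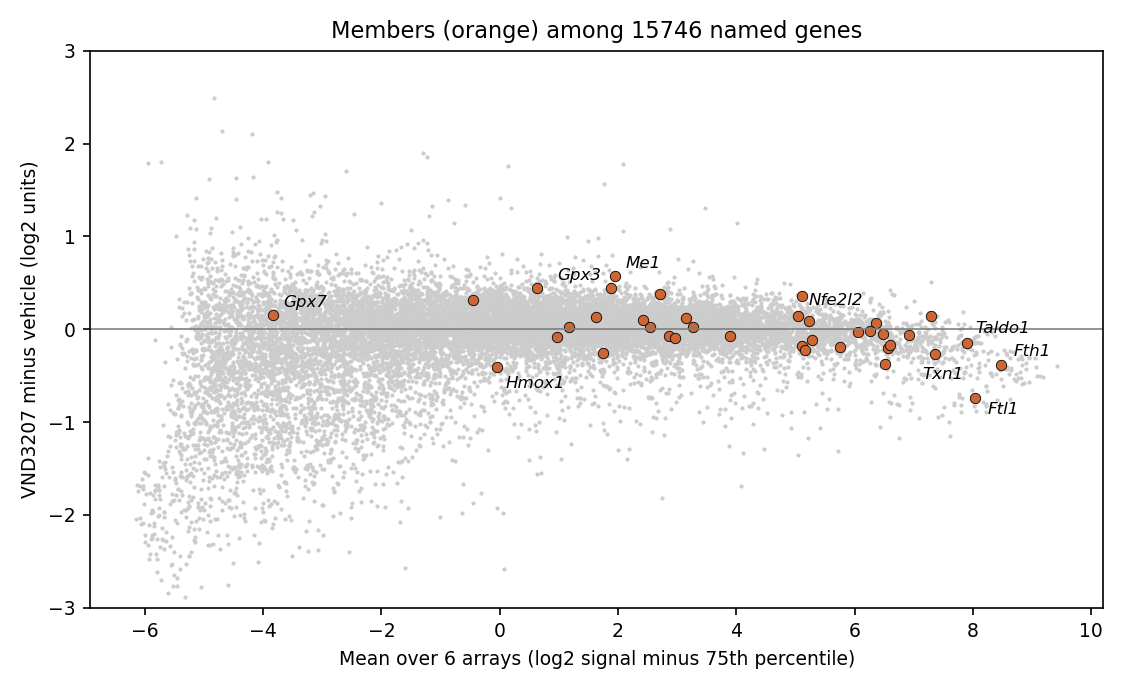
Difference between VND3207 and vehicle (log2 units, vertical axis) against the mean level over 6 arrays (log2 signal minus the 75th percentile, horizontal axis) for 15746 named genes in grey, with the 38 measured genes in orange and 10 genes outside the plotted range of 3 log2 units. Grey points bend below 0 at both ends, and Ftl1 and Fth1 lie at the bright end.

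Further genes of the same biology, in 7 lists, gave 109 measured genes of 116. Of these, 0 were called higher and 4 (3.67%) lower, beside 0.692% and 7.74% of all named genes, with 49 above 0 and 60 below. Of the 4, Ftmt and Gpx6 were kept through the vehicle group alone, which leaves 2 measured in both groups, Aldh3a1 and Selenop.

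The list of other NRF2 targets in detoxification and export had 28 of 29 genes measured, 22 of them below 0, with a median of -0.15. It was -0.13 after quantile normalization and -0.05 after correction for smooth trends. Aldh3a1, an aldehyde dehydrogenase, was called lower: on its brighter probe it fell by 1.00 ± 0.14 (limma adjusted p = 0.00583). It read 1.22, 1.30 and 0.98 against 0.04, 0.33 and 0.12, yet its other probe was at 0.18, so the 2 probes of this gene disagree. The brighter probe was at -1.01 (limma adjusted p = 0.0092) after quantile normalization and -0.88 (adjusted p = 0.0208) after correction for smooth trends. Gsta2, a glutathione transferase, had the lowest value of the list at -1.06 ± 0.36 without a call (adjusted p = 0.110), and Aox1, an aldehyde oxidase, the highest at 0.54 ± 0.53.

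Among other glutathione genes and selenoproteins, 14 of 16 were measured, with a median of -0.04. Selenop, the plasma selenium carrier, fell from 8.56, 8.60 and 8.52 to 7.67, 7.80 and 7.86, at -0.78 ± 0.10 (limma adjusted p = 0.00466). Its groups were far apart, and it too lies in the brightest band. The Selenop difference was -0.43 (limma adjusted p = 0.0374) after quantile normalization and -0.57 (adjusted p = 0.0212) after correction for smooth trends. Gpx6, a peroxidase known from the olfactory epithelium, was clear of background on the 3 vehicle arrays and on 0 of the VND3207 arrays, lower by at least 1.56-fold. Like Ftmt it was kept through the vehicle group alone, so no test is given. Ggct, an enzyme of glutathione breakdown, had the highest value of the list at 0.38 ± 0.16.

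The 14 other heme and iron genes had a median of 0.01. Ftmt, kept through the vehicle group alone, had the lowest value, and 0 of the others were called. Tfrc, the transferrin receptor that brings iron into cells, was highest at 0.35 ± 0.10 (limma adjusted p = 0.0798), reading 1.00, 1.09 and 0.91 against 1.33, 1.27 and 1.44 without overlap. Its other probes were at -0.07 and 0.14, so the 3 probes disagree, and the brightest was at 0.17 after correction for smooth trends.

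NRF2 control and degradation genes had 12 of 13 measured, a median of 0.01 and no call. Dpp3, a peptidase that binds KEAP1, was highest at 0.34 ± 0.10 (limma adjusted p = 0.0750), and past the threshold at 0.52 (adjusted p = 0.0364) after correction for smooth trends. Maff, a small MAF partner, was lowest at -0.15 ± 0.22. All 15 other thioredoxin, glutaredoxin and repair genes were measured, with a median of -0.06 and no call. Txnip, an inhibitor of thioredoxin, was highest at 0.46 ± 0.13 (adjusted p = 0.0730), and Txn2, mitochondrial thioredoxin, lowest at -0.28 ± 0.11. The probes of Txn2 disagreed, its others ranging from -0.10 to 1.32, while the other Txnip probe was at 0.31. Txnip was at 0.28 after correction for smooth trends.

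The 13 other NADPH genes had a median of 0.08 and no call, from Me3, mitochondrial malic enzyme, at -0.38 ± 0.25 to H6pd, a hexose phosphate dehydrogenase of the endoplasmic reticulum, at 0.29 ± 0.14. Of 16 enzymes that make superoxide, peroxide or nitric oxide, 13 were measured, with a median of 0.12 and no call. The median was 0.35 after quantile normalization and 0.34 after correction for smooth trends. Most of these enzymes had a mean level below 0. For all named genes below 0, the median moved from -0.05 to 0.10 and 0.08 in the same settings. Cybb, the catalytic subunit of the phagocyte NADPH oxidase, was highest at 0.66 ± 0.24 (limma adjusted p = 0.138). It was at 0.92 (adjusted p = 0.0539) after quantile normalization and past the threshold at 1.00 (adjusted p = 0.0465) after correction for smooth trends. Duox1, a dual oxidase, was lowest at -0.43 ± 0.25, and at 0.10 after that correction. The 8 macrophage markers measured of 9 listed had a median of 0.28 and 0 calls, and their summed linear level was 20.3 to 26.3 in vehicle and 21.7 to 33.2 in VND3207 mice. Their part in Cybb was not tested.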

How the data were processed

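RNA of 6 jejunum samples, 3 mice per group per the labels, was hybridised to 1-colour arrays with 60-base probes. Per the submitters' processing notes, the deposited scanner files come from Agilent Feature Extraction 10.7.1.1, and their intensity values are its processed signals, per the file headers. The authors' deposited value table holds log2 values; how it was normalized is not given in the sources used here, and it served as an alternative only.

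Control and outlier spots were left out, spots of a probe averaged, and log2 signals reduced by the array's 75th percentile. Of 55681 probes, the 36066 kept stood well above background in 3 or more of the 6 arrays, whichever the group. Groups were compared with limma 3.58.1 (lmFit and eBayes, 2-sided) under R 4.3.3, p-values were adjusted by Benjamini-Hochberg over these probes, and the fit was tested on simulated data. The number of arrays limits the precision. Where all arrays of a group failed the background mark for a gene, its fold is a lower bound, taken against the mean over its arrays of the higher of its own signal and the array's lowest signal called well above background. Smooth trends with spot row, spot column, brightness and probe GC content were fitted with mgcv 1.9.3 as an alternative, which may take away some true difference too. Other alternatives were quantile normalization, the array median, normexp (offset 50), filters on dim probes, variance models, array weights, a replicate block, other uses of a gene's probes, brighter probes only, and each array left out.

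Every gene of the set is accounted for by role, with values on each array for those called, those without overlap and the main NRF2 genes; of each further list, called genes and the largest difference in each direction are named. Other genes were chosen for mention with their values in view. The genes and lists were chosen with earlier results of these data known. Probe positions are mm9, per the file headers.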

Additional observations from a re-analysis of the deposited data

How the results depend on the processing

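Ftl1 was lower and past the threshold in all 19 fits with a test, the main fit being counted among them. It ran from -0.79 to -0.38 with limma adjusted p between 0.0035 and 0.0427, and from -0.79 to -0.67 when arrays were left out in turn. The number of genes of the set called lower was 1 in each refit. The number called higher was 0, except for 7 with the array median subtracted (Nfe2l2, Gclc, Gpx3, Prdx3, Prdx4, Pgd and Abcc4), 1 without a filter on dim probes (Slc7a11, not well above background on any array) and 1 with an intensity trend and robust variance (Gpx3). Of the 15746 named genes, 3882, 49 and 198 were called higher in these refits, in that order. Subtracting the array median moved the median of all named genes to 0.30 and that of the set to 0.26, and turned the share of calls that were higher from 8.21% to 82.2%. That share was 26.7% after quantile normalization, with 769 genes lower and 280 higher, 29.3% in the deposited table and 37.8% after correction for smooth trends, with 613 lower and 373 higher. The set's median was 0.05 after quantile normalization, 0.07 in the deposited table and 0.05 after that correction, and ranged from -0.11 (without vehicle replicate 3) to 0.00 (without vehicle replicate 2) when arrays were left out. With the replicate block, Ftl1 had an adjusted p of 0.0427, 1 gene of the set was lower, 0 were higher and the set's median was -0.04, while 757 named genes were lower and 40 higher against 1218 and 109; same-numbered arrays deviated together at r of 0.13, -0.11 and -0.05, so the numbers are not taken as pairs. For single genes of the set, 655 values stayed within the spread or on their side of the threshold, 62 moved by more than 1 SD and 8 passed the threshold. Dim genes are limited by background: Slc7a11 has no measured difference.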
